A study of Manacus vitellinus and Taeniopygia guttata with 24 samples.

Results

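Gene expression was compared between 2 wing muscles of the same birds, golden-collared manakins (Manacus vitellinus) that carried a blank implant. The scapulohumeralis caudalis (SH) lies at the shoulder and pulls the wing in. The pectoralis (PEC) is the large breast muscle that powers the downstroke. The comparison holds 6 of the 24 libraries of the study, chosen by their titles (-TS1 to -TS3 for SH and -TP1 to -TP3 for PEC). Libraries of a number share a bird code, so the differences were formed within 3 birds.

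The -T birds were males given a blank implant at random, under the skin at the base of the neck. Their labels speak of an absence of testosterone, but no castration is mentioned, and the hormone of the birds was not measured in the data used here. The +T manakins, again 3 males with both muscles, had an implant with testosterone. By the protocol the zebra finches all received testosterone, 3 birds on the day after a blank (T-only) and 3 birds on the day after flutamide, an antiandrogen drug. The labels of a finch group speak instead of an absence of testosterone, and that group was read as flutamide. Which finch titles mean flutamide was read from the titles and the protocol together.

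Male manakins court with an acrobatic display of fast wing movements, in which the SH takes part, while the PEC serves flight. Skeletal muscles share 1 contractile machinery but differ in the isoforms of its proteins, in calcium handling and in the fuels they burn, according to how fast and how long they work. This is background and not a result. The values are listed under Ensembl identifiers of zebra finch genes without names, and a look-up of all 14926 identifiers in a gene table of a manakin assembly matched 0 of them. No gene is therefore named or given a function, and the muscles could not be checked against their marker genes. Identifiers are given for 2 genes in each direction. The samples are bulk muscle, so fewer cells of a type and less RNA per cell cannot be told apart.

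The 6 libraries held 11359814 to 15326906 reads, of which 73.6% to 80.6% fell in genes, and listed 8925 to 9647 genes. Values are RPKM, in which reads are divided by the length of the gene and the size of the library, and a gene missing from a list was read as 0. SH had more reads than PEC in 3 of 3 birds, and more reads in genes in 2 of 3. Across genes, libraries of the same muscle correlated at r = 0.926 to 0.947 in SH and 0.933 to 0.951 in PEC. The 2 muscles of a bird correlated at 0.934, 0.945 and 0.900 in birds 1, 2 and 3, so sharing a bird did not bring libraries closer than sharing a muscle. Read numbers below were recovered from the RPKM values, and 65.4% to 70.9% of them were even in a library, an excess whose cause was not tested. Read numbers, and the floor of 3 reads used below, may therefore not count independent observations. The PEC of bird 3 correlated more with the SH of bird 1 (0.936) than with its own SH.

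Past the threshold, 3 genes were higher and 6 were lower in SH of the -T birds. Most of them were close to absent in one muscle and well expressed in the other, and 1 was among the most abundant transcripts of PEC. A gene was tested if it reached 1 RPKM in at least 3 of the 6 libraries, on log2(RPKM + 1) with the bird as a block. It was called at a limma adjusted p below 0.05. The SE given with a log2 difference is the moderated one of limma. It draws the spread of a gene towards that of the genes tested, so it is not the SE of the 3 bird differences alone. The 9 called genes were 0.109% of the 8287 tested, with 0.0362% higher and 0.0724% lower. Each of the 9 had the same direction in 3 of 3 birds. Without adjustment, limma put 921 genes (11.1%) below a p of 0.05, 630 of them higher (7.6%) and 291 lower (3.51%).

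**Figure D1:**
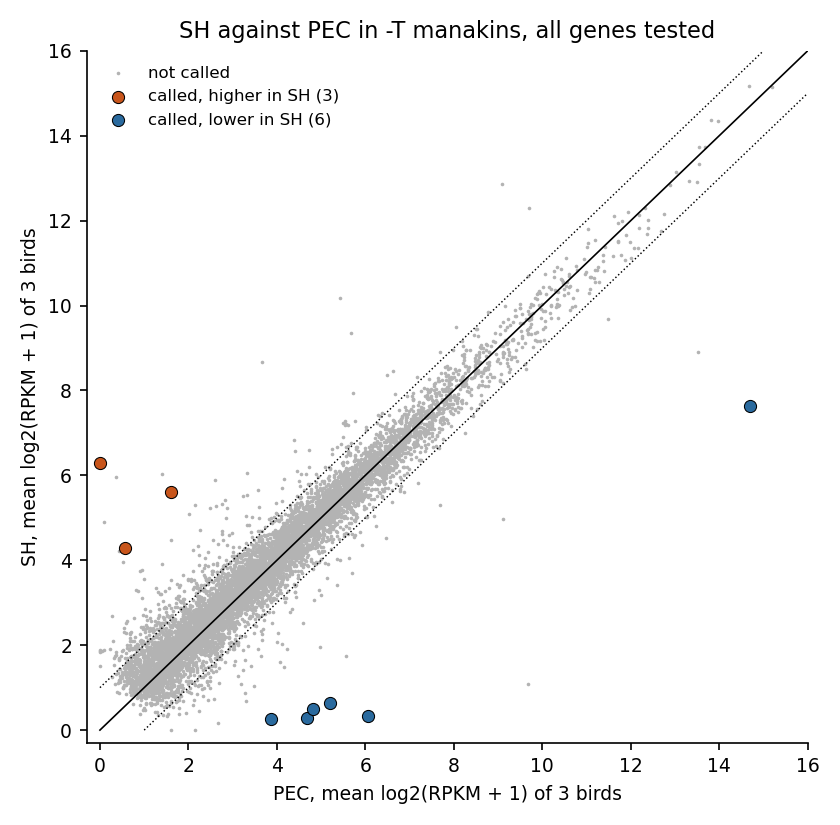
Mean log2(RPKM + 1) of 3 birds in SH (vertical axis) against PEC (horizontal axis), 1 point for each of the 8287 genes tested. The solid line marks equal levels and the dotted lines a difference of 1 on this scale. The 3 genes called higher (orange) lie far above the lines and the 6 called lower (blue) far below, 1 of them at the abundant end of PEC.

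The calls rest on 3 birds and 2 residual degrees of freedom. Leaving out bird 1 or bird 3 left 0 calls in limma, with 548 and 1045 genes below an unadjusted p of 0.05, and leaving out bird 2 left 2 calls, 1 of them among the 9. With limma-voom on reads recovered from the RPKM values, 39 genes were called, 22 higher and 17 lower, and 5 of the 9 were among them.

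Among the called genes, ENSTGUG00000006008 had the largest difference on the log2(RPKM + 1) scale, abundant in PEC and modest in SH. Its level was 26100.1, 25478 and 28399 RPKM in the PEC of birds 1, 2 and 3, and 163, 164 and 285 RPKM in their SH. The 3 PEC libraries were close to each other and far from every SH library. By its mean the gene ranked 3 in PEC, where it took 3.31% to 3.39% of all RPKM, and 466 in SH, where it took 0.0210% to 0.0397%. The PEC mean of 26659 ± 1539 RPKM was 131 times the SH mean of 204 ± 69.9 RPKM (SD, n = 3 each). On the log2(RPKM + 1) scale the difference was -7.07 ± 0.25 (SE, n = 3 birds, limma adjusted p = 0.00670). Both levels rest on many reads, 144095 to 194127 in PEC and 1161 to 2019 in SH.

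ENSTGUG00000000287 had the second largest drop of the called genes on the log2(RPKM + 1) scale. By the ratio of means, 259 times higher in PEC, it had the largest drop of the 9 genes, as it did with a pseudocount of 0.1 (log2 -7.56) and with limma-voom (-8.00). Its level was 79.5, 69.0 and 51.2 RPKM in PEC and 0.261, 0.354 and 0.157 RPKM in SH of birds 1, 2 and 3. All SH libraries were close to 0, on 4 to 9 reads, and all PEC libraries rested on 1260 to 1594 reads. The log2 difference was -5.73 ± 0.23 (SE, n = 3 birds, limma adjusted p = 0.00670). The call held under each of the 11 alternatives that kept all birds (adjusted p up to 0.0413) and was lost without any 1 bird (adjusted p 0.0627 to 0.0793).

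The other 4 genes lower in SH had the same shape, a moderate level in every PEC library and under 1 RPKM in every SH library. The third was at 39.7, 30.8 and 37.8 RPKM in PEC and 0.569, 0.600 and 0.523 RPKM in SH (log2 -4.56 ± 0.23 SE, limma adjusted p = 0.00952). The fourth was at 21.9, 28.7 and 24.4 RPKM in PEC and 0, 0.437 and 0.261 RPKM in SH (log2 -4.41 ± 0.22 SE, limma adjusted p = 0.00952). In these, as in the other 2, the groups lay far apart and the SH values rested on few reads. The fifth was at 29.2, 22.1 and 30.7 RPKM in PEC and 0.804, 0.437 and 0.109 RPKM in SH (log2 -4.30 ± 0.27 SE, limma adjusted p = 0.0157). The sixth was at 14.2, 14.4 and 12.5 RPKM in PEC and 0, 0.682 and 0 RPKM in SH (log2 -3.62 ± 0.25 SE, limma adjusted p = 0.0240). Of the 6 genes, 5 passed the filter on low values through PEC alone and so had to differ, as did 18 of all genes tested.

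Of the genes higher in SH, ENSTGUG00000007447 was listed in no PEC library. In SH it was at 52.9, 54.8 and 159 RPKM, on 219, 215 and 628 reads, with bird 3 well above the other 2 birds. A count of 0 allows up to 3 reads, which for this gene is at most 0.978 RPKM in a PEC library. Against that floor per library, the SH mean of 89.0 ± 60.9 RPKM (SD, n = 3) was at least 91.0-fold higher, and the lowest SH library at least 54.1-fold. The fitted log2 difference of 6.29 ± 0.39 (SE, limma adjusted p = 0.0157) depends on the pseudocount. The gene passed the filter through SH alone, as did 46 of all genes tested, and its call was lost with limma-voom.

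ENSTGUG00000007407 was at 45.1, 32.1 and 75.3 RPKM in SH and at 1.80, 1.38 and 3.24 RPKM in PEC of birds 1, 2 and 3. The lowest SH library was far above the highest PEC library, and the SH mean was 23.8 times the PEC mean. The log2 difference was 4.0 ± 0.22 (SE, n = 3 birds, limma adjusted p = 0.0138). The third gene higher in SH was at 17.7, 23.7 and 15.5 RPKM in SH and 0.187, 1.13 and 0.302 RPKM in PEC, where it had 2 to 14 reads (log2 3.73 ± 0.23 SE, limma adjusted p = 0.0157).

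**Figure D2:**
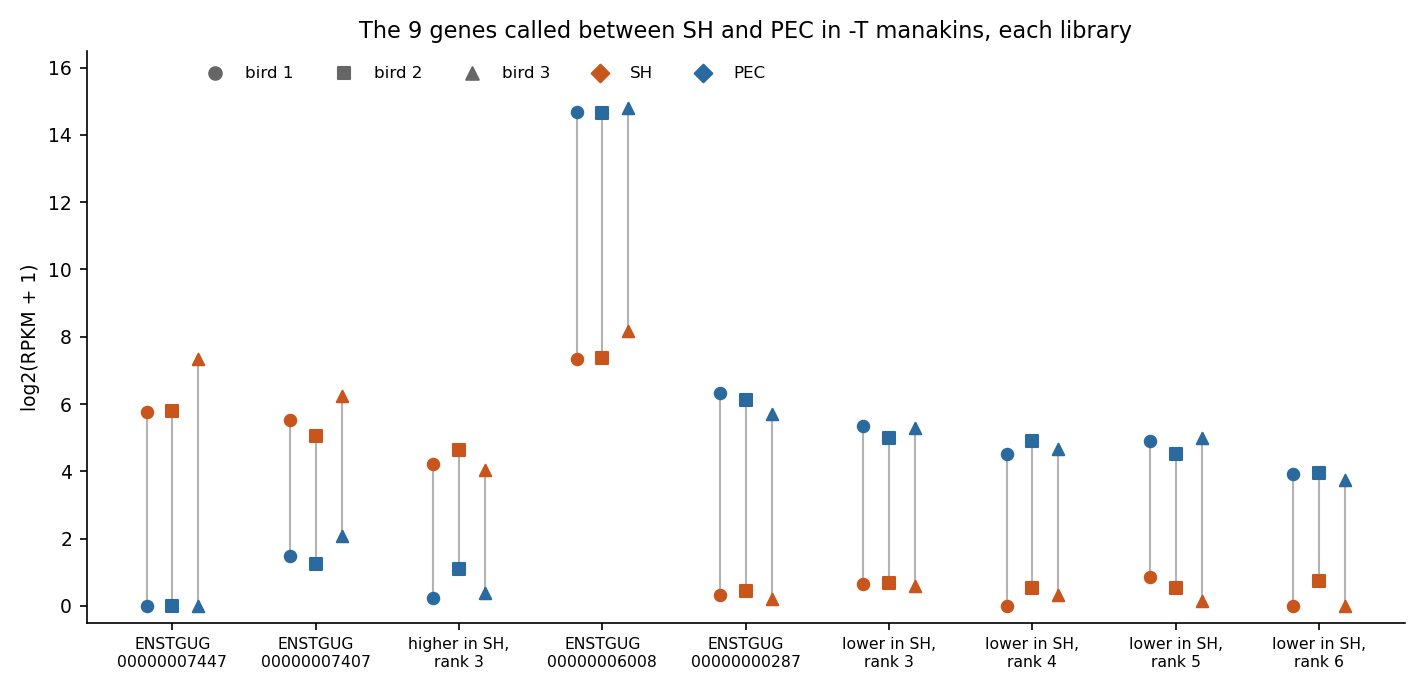
Level of the 9 called genes in each -T library as log2(RPKM + 1), with SH in orange, PEC in blue, 1 symbol for each bird and a line joining the muscles of a bird. The muscles do not overlap for any of the 9 genes. For 5 of the 6 genes lower in SH the SH points lie near 0, while ENSTGUG00000006008 keeps 163 to 285 RPKM there.

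Over all genes tested, the called ones included, SH was higher in 3 of 3 birds in 1975 (23.8%) and lower in 3 of 3 in 1137 (13.7%). All SH libraries lay above all PEC libraries in 914 genes (11%) and below them in 530 (6.4%). Few of these differences were large. A 2-fold difference or more in each bird, on the log2(RPKM + 1) scale, was found in 74 genes higher (0.893%) and 31 lower (0.374%), and a 4-fold one in 14 (0.169%) and 9 (0.109%). The 3 genes called higher are among those 14 and the 6 called lower among those 9, which is no separate support, as the same libraries gave the calls.

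The 3 genes nearest to the threshold were not called. One was at 410 ± 39.8 RPKM in SH and 14.8 ± 13.2 RPKM in PEC (SD, n = 3 each, limma adjusted p = 0.0586). Another was at 0.121 ± 0.0912 RPKM in SH and 5.40 ± 1.24 RPKM in PEC (limma adjusted p = 0.0613). The last was abundant in both muscles, at 5936, 5141 and 4200 RPKM in SH and 826, 1071 and 641 RPKM in PEC (limma adjusted p = 0.0696), and its groups did not overlap.

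The median log2 difference over all tested genes was 0.10 towards SH. It was 0.01 with median-ratio scaling and -0.01 with quantile scaling, and both scalings called the same 9 genes. By bird the medians were 0.01, 0.12 and 0.14 in birds 1, 2 and 3. Bird 3 had the widest spread, with 147 genes at least 4-fold higher and 188 at least 4-fold lower in SH. The counts were 146 and 62 in bird 1 and 123 and 49 in bird 2. Across genes, which are not independent and share depth within a library, the differences correlated at r = 0.330 for birds 1 and 2, 0.191 for birds 1 and 3 and 0.122 for birds 2 and 3.

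Only the most abundant genes leaned towards PEC, while each lower level leaned towards SH, as did all genes tested. Of 209 genes with a mean of 500 RPKM or more, 38 lay wholly lower and 21 wholly higher in SH, with a median log2 difference of -0.12. Of 2380 genes under 5 RPKM, 105 lay wholly lower and 232 wholly higher, with a median of 0.14. As shares these were 4.41% and 9.75%, against 6.4% and 11% of all genes tested, so scarce genes did not stand out. From 5 to 50 RPKM the counts were 241 and 461 of 4249 genes, and from 50 to 500 RPKM they were 146 and 200 of 1449. These counts are a description with no test, and they were not repeated with median-ratio or quantile scaling. Of the 9 called genes, 8 averaged 5 to 50 RPKM over the 6 libraries.

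The 20 most abundant genes took 31.9%, 31.8% and 30.5% of RPKM in the SH of birds 1, 2 and 3, and 34.1%, 33.1% and 34.5% in their PEC. SH was lower in 3 of 3 birds without overlap (exact paired permutation, two-sided p = 0.25, the smallest that 3 birds allow, adjusted p = 0.5625 over 9 library values). The most abundant genes that made up 50% of RPKM numbered 79, 87 and 98 in SH and 63, 72 and 60 in PEC, again without overlap (exact paired permutation p = 0.25, adjusted p = 0.5625). RPKM in SH was thus spread over more genes, by a difference that 3 birds cannot carry past 0.05.

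Both muscles drew on much the same abundant transcripts. The top 20 by mean level in each muscle had 14 genes in common, and none of these differed by more than 1.53 times between the muscle means. For 1 of the 14, ranked 16 in PEC, the means hid a PEC library near 0. It was at 0.406 RPKM in the PEC of bird 3 and 5579 RPKM in its SH (log2 3.77 ± 2.57 SE over 3 birds). The 6 in the top 20 of SH alone ranked 139 or better in PEC. The 6 in the top 20 of PEC alone reached down to rank 8264 in SH, a gene near 0 in every SH library and in 1 PEC library. After it, ENSTGUG00000006008 had the lowest rank in SH, 466. Another of the 6, ranked 8 in PEC, was at 11717, 8418 and 16591 RPKM in PEC and 803, 642 and 216 RPKM in SH of birds 1, 2 and 3. Its groups lay far apart, yet it was not called (log2 -4.61 ± 0.56 SE, n = 3 birds, limma adjusted p = 0.156).

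Of 10500 genes listed in at least 1 of the 6 libraries, 8206 were listed in all 6. In all 3 libraries of one muscle and none of the other, 43 of the 10500 were listed in SH alone and 9 in PEC alone. Most were scarce, with a median level of 0.786 RPKM for the SH genes and 1.19 RPKM for the PEC genes. Apart from ENSTGUG00000007447 at 89.0 RPKM, the highest of the SH genes averaged 4.31 RPKM. In +T birds, 35 of the 43 were listed in at least 1 PEC library and 36 had a higher mean RPKM in SH. Of the 9 PEC genes, 8 were listed in a +T SH library and 5 had a higher mean RPKM in +T PEC. Over the 8287 genes tested, 75.0% were higher and 24.9% lower in +T SH by the log2 difference. Those shares cover another set of genes on another scale, so they are no direct background for these counts. SH libraries had more reads in 3 of 3 birds but more reads in genes in only 2 of 3. The part of depth in these counts was not tested.

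Some genes were either high or far lower from library to library. They were picked after the data were seen, as genes that reached 10 RPKM in a library and were in every library within 8-fold of the highest or at least 32-fold below it. In the -T birds 96 of 5441 genes (1.76%) had this form. Of these, 4 were high in all SH and low in all PEC libraries, 5 the reverse, and 87 split the libraries of at least 1 muscle. Of the 9 called genes, 6 were among the 9 that split by muscle. Both lists come from the same 6 libraries, so this overlap is no separate support for the calls. In 9 of the 87, both muscles of each bird were alike. Among the 87 genes, the low state was met in 28 to 29 in SH libraries and in 23 to 35 in PEC libraries.

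Such splits reached the most abundant transcripts. The gene ranked 7 in PEC was at 19791, 0.363 and 20095 RPKM in the PEC of birds 1, 2 and 3, and at 1.15, 1.21 and 0.985 RPKM in their SH. Only the PEC of birds 1 and 3 was high, so the PEC mean hid a library near 0. The gene ranked 14 was at 11417, 0.240 and 12018 RPKM in PEC and 11549, 0.546 and 0.761 RPKM in SH, so bird 1 was high in both muscles and bird 2 low in both. The gene ranked 16 was at 11144, 10420 and 0.406 RPKM in PEC and 9727, 7686 and 5579 RPKM in SH, so 1 PEC library alone was low. In the 12 finch libraries the same 3 genes ranged from 15382 to 23561 RPKM, from 2763 to 7699 RPKM and from 368 to 1977 RPKM, with none near 0. Of the 87 genes, 30 reached 10 RPKM in a finch library, and 20 of those 30 stayed within 8-fold over all 12. The share of all genes that did so in finches was not computed, so this count has no background. The form was met in 3.42% of genes in +T manakins, 1.12% in T-only and 0.687% in flutamide finches, and its cause was not tested.

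**Figure D3:**
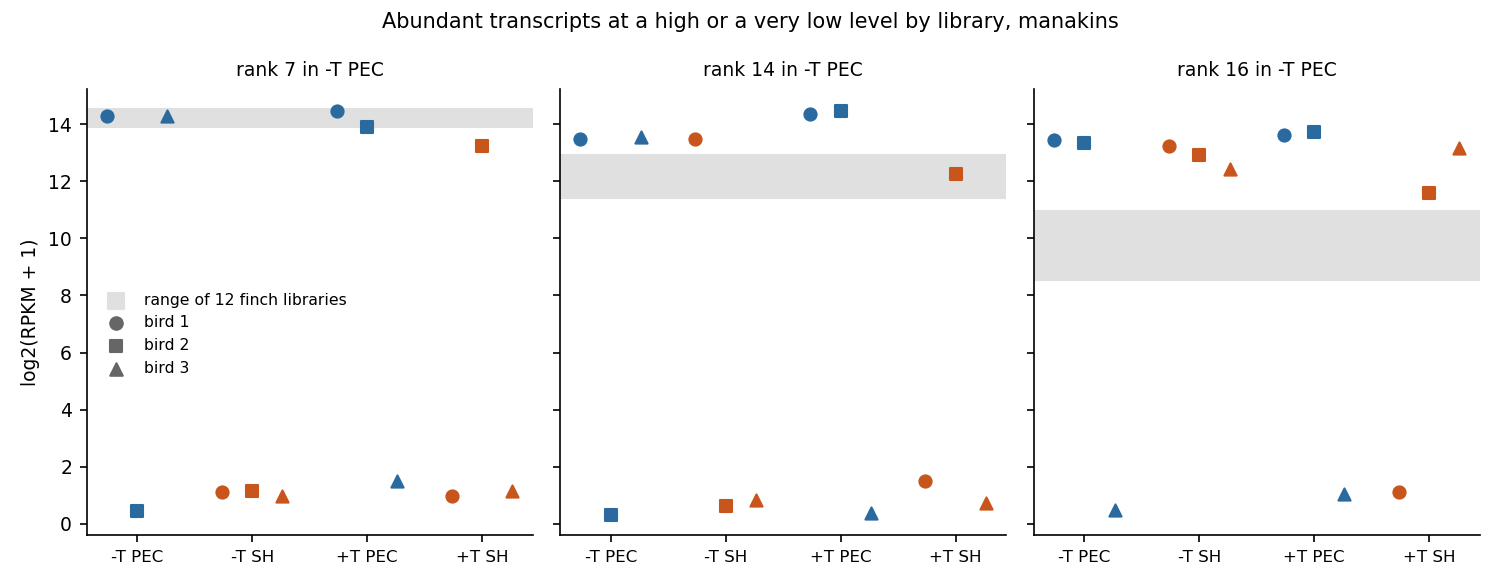
Level of 3 abundant genes in each manakin library as log2(RPKM + 1), by group, with 1 symbol for each bird and a grey band for the range of the 12 finch libraries. Each gene lies either above 11 or below 2 on this scale in every manakin library, and libraries of 1 group fall on both sides in at least 1 group of each gene.

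In +T manakins, which share no bird with the -T group, 0 of the 8287 genes were called (0%), with 1074 (13%) below an unadjusted p of 0.05 in limma. Of the 9 genes, 8 had the same sign there and 7 of them were below an unadjusted p of 0.05. Of all genes tested, 75.0% were higher and 24.9% lower in +T SH. The SH library of +T bird 2 had 87.9% of its reads in genes, against 76.7% to 80.1% in the other 5 +T libraries. ENSTGUG00000007447 was at 220, 72.9 and 281 RPKM in +T SH and 4.70, 9.37 and 4.90 RPKM in +T PEC, so it was present in +T PEC while still far higher in SH (log2 4.56 ± 0.62 SE). ENSTGUG00000006008 was at 82.2, 5.07 and 521 RPKM in +T SH and 17337, 11341 and 13383 RPKM in +T PEC (log2 -7.75 ± 1.13 SE).

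ENSTGUG00000007407 was at 38.4, 7.67 and 19.9 RPKM in +T SH and 0, 5.76 and 4.30 RPKM in +T PEC (log2 2.55 ± 0.94 SE), with bird 2 almost level between the muscles. The fifth gene lower in SH was at 126 RPKM in the SH of +T bird 2, above the 43.4 RPKM of its PEC, and at 0.734 and 1.72 RPKM in the SH of the other 2 birds. ENSTGUG00000000287 did not differ in 1 direction, at 18.6, 2.78 and 4.57 RPKM in +T SH and 12.1, 4.49 and 1.51 RPKM in +T PEC (log2 0.40 ± 0.44 SE).

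Over all genes the +T median was 0.42 towards SH. Of the 630 genes below an unadjusted p of 0.05 and higher in -T SH, 566 (89.8%) were higher in +T SH, as were 75.0% of all genes, and 482 (76.5%) lay above the +T median. Of the 291 lower genes, 171 (58.8%) were lower in +T SH, as were 24.9% of all genes, and 224 (77.0%) lay below the +T median. Across the 8287 genes the differences of the implant groups correlated at r = 0.407 and rho = 0.364, as a description over genes that share libraries.

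The test of the muscle difference between -T and +T birds called 1 of 8287 genes (0.0121%), with 428 (5.16%) below an unadjusted p of 0.05. The gene was ENSTGUG00000000287, whose muscle difference was lower in -T by -6.13 ± 0.50 on the log2 scale (SE, limma adjusted p = 0.0334). The call was lost without the block (0.167), with either scaling (0.0963 and 0.109), with no filter (0.0742) and with a pseudocount of 0.1 (0.0732). It was lost without any 1 bird (0.109 to 0.348) except +T bird 2 (0.0107). For the other 8 genes no difference between implants was shown (adjusted p 0.746 to 0.891).

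**Figure D4:**
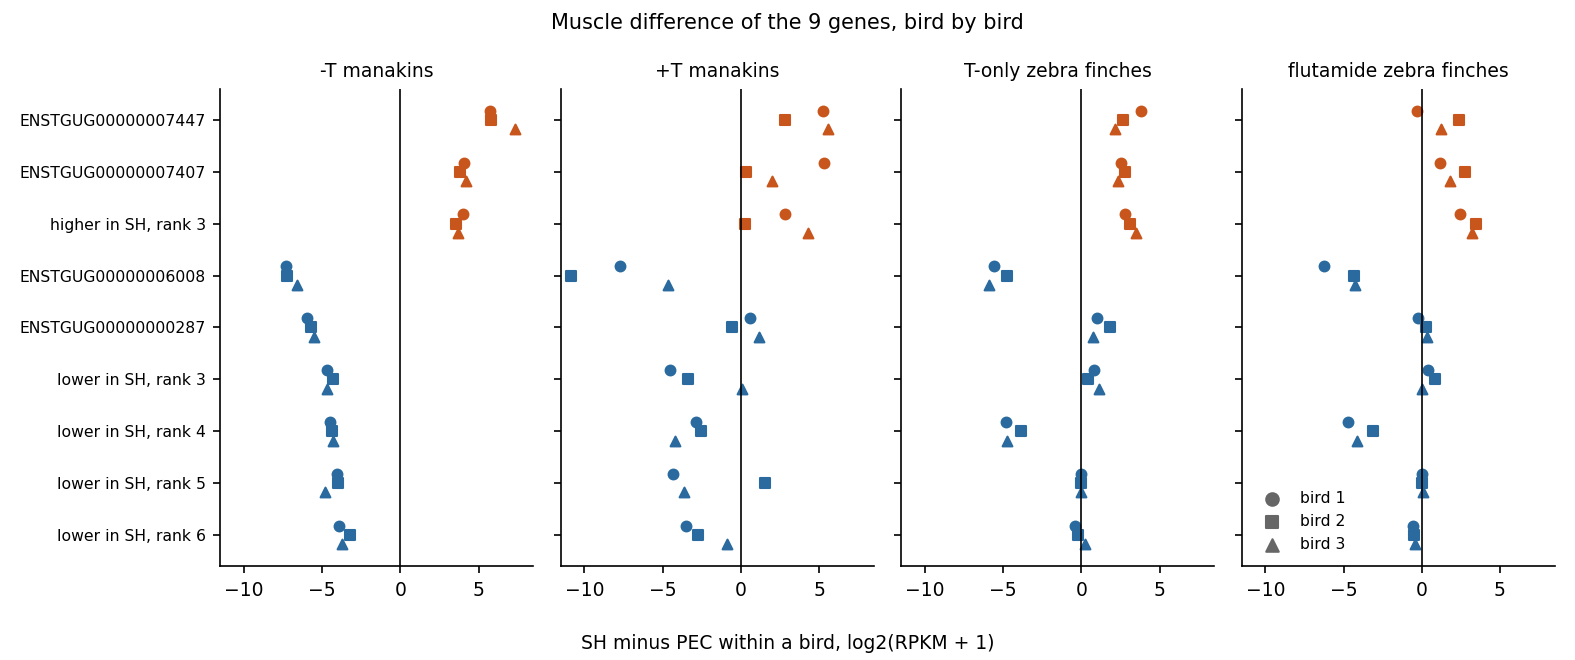
SH minus PEC within each bird on the log2(RPKM + 1) scale for the 9 genes called in -T manakins, in -T and +T manakins and in T-only and flutamide finches, with 1 symbol for each bird. By the choice of the genes all -T points lie on one side of 0. ENSTGUG00000006008 and the fourth gene lower in SH lie below 0 in every bird of all 4 groups, while ENSTGUG00000000287 lies on both sides outside the -T birds.

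In zebra finches the fit over all 8287 genes called 0 genes in either group (0%), with 2507 (30.3%) below an unadjusted p of 0.05 in T-only and 1900 (22.9%) in flutamide birds. Genes at 0 in every library of a finch group have no spread there and enter the fit of that group. An alternative added after the data were seen held only the genes listed in at least 1 library of the group tested. It called 1518 of 7740 genes (19.6%) in T-only birds, 18.2% higher and 1.37% lower in SH, where 38.1% were below an unadjusted p of 0.05. In flutamide birds 538 of 7692 (6.99%) were called, 5.64% higher and 1.35% lower, where 29.6% were below an unadjusted p of 0.05. In T-only birds that fit held 8 of the 9 genes and called 6, 5 in the same direction as in -T manakins and 1 in the opposite direction. In flutamide birds it held all 9 and called 4, each in the same direction. Called or not, 6 of the 9 genes had the same sign as in -T manakins in each finch group. Of the 8287 genes, 73.9% were higher and 19.5% lower in SH of T-only birds by this sign. In flutamide birds these shares were 66.8% and 26.0%. The 6 include the sixth gene lower in SH, which was near 0 in finches. Its means in T-only birds were 0.132 RPKM in SH and 0.235 RPKM in PEC (log2 -0.13 ± 0.25 SE).

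ENSTGUG00000006008 was lower in finch SH too, at 490, 818 and 374 RPKM against 23674, 22002 and 22396 RPKM in PEC of T-only birds (log2 -5.41 ± 0.28 SE, limma adjusted p = 1.71e-05 over listed genes). The fourth gene lower in SH differed by -4.48 ± 0.28 in T-only birds (limma adjusted p = 4.39e-05 over listed genes). ENSTGUG00000007447 was at 38.2, 23.5 and 13.2 RPKM in SH and 1.80, 2.86 and 2.25 RPKM in PEC of T-only birds (log2 2.87 ± 0.33 SE, limma adjusted p = 0.000863 over listed genes). In flutamide birds its muscles overlapped, at 1.82, 9.84 and 19.5 RPKM in SH and 2.56, 1.05 and 7.74 RPKM in PEC. It was not called there (log2 1.10 ± 0.42 SE, limma adjusted p = 0.121 over listed genes). ENSTGUG00000000287 was higher in SH of T-only birds, at 39.4, 91.8 and 54.5 RPKM against 19.0, 25.6 and 32.2 RPKM (log2 1.19 ± 0.28 SE, limma adjusted p = 0.0194 over listed genes). Its T-only groups did not overlap, and the direction there was opposite to that in -T manakins. In flutamide birds its muscles overlapped, at 28.8, 24.8 and 27.8 RPKM in SH and 34.7, 20.4 and 21.5 RPKM in PEC. No muscle difference was shown there (log2 0.12 ± 0.22 SE, limma adjusted p = 0.744 over listed genes).

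The test of the muscle difference between -T manakins and all 6 finches called 69 of 6969 genes (0.99%), 17 higher (0.244%) and 52 lower (0.746%) in manakins, with 1358 (19.5%) below an unadjusted p of 0.05. The split depended on the scaling, with 30 higher and 26 lower under median-ratio and 23 and 24 under quantile scaling. ENSTGUG00000000287 differed by -6.38 ± 0.30 (SE, limma adjusted p = 1.03e-06), and the third gene lower in SH by -5.17 ± 0.28 (limma adjusted p = 2.27e-06). ENSTGUG00000007447 differed by 4.31 ± 0.59 (limma adjusted p = 0.00689) and ENSTGUG00000007407 by 1.76 ± 0.34 (limma adjusted p = 0.0381). No difference between species was shown for ENSTGUG00000006008 (-1.90 ± 0.45, limma adjusted p = 0.0723) or the fourth gene lower in SH (-0.16 ± 0.36, limma adjusted p = 0.841). The same held for the third gene higher in SH (0.65 ± 0.30, limma adjusted p = 0.256). The fifth and sixth genes lower in SH did not reach 1 RPKM in 3 finch libraries and were not tested. Here too the -T libraries by which the 9 genes were chosen are 1 side of the test. Species, hormone treatment and the match of manakin reads to zebra finch genes cannot be told apart in this test.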

How the data were processed

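RNA of 6 muscle samples from 3 blank-implant manakins was analysed, beside 18 libraries of the other groups. Libraries kept the strand (TruSeq mRNA kit, per the labels' protocols). The deposited values are RPKM per gene, per the file headers, which name Ensembl release 68. Bowtie 0.12.9, cutadapt and CASAVA are named in the submitters' processing notes. Genome build and counting method are not given in the sources used here, and manakin reads carry zebra finch identifiers, so divergence between the species can change a gene's level.

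Differences were tested in limma 3.58.1 (R 4.3.3) on log2(RPKM + 1), which understates changes of low genes, with Benjamini-Hochberg adjustment over all genes tested. The bird was the block, since both muscles of a number carry 1 bird code. Deviations of same-bird libraries correlated at 0.125, 0.201 and -0.156. Reads were recovered as whole numbers for all 113221 of 113221 manakin values (relative tolerance 3e-13). Gene lengths were found from the same values so as to make the reads whole, so this match is in part built in. Lengths found in each species alone were the same for 8955 of 9953 genes. The recovered reads were used for limma-voom, which takes each as 1 observation although even counts were in excess. The floor for a count of 0 is 3 reads and covers counting error only. Read recovery and the paired limma fit were tested on simulated data. These held no excess of even counts and no genes that split a muscle, so the tests do not cover those features. Library values were compared by exact permutation within birds. Other steps ran in Python 3.11.15 with pandas 2.3.3, numpy 2.4.6 and matplotlib 3.10.9. No 2 libraries of a muscle agreed within sampling noise (chi-square per degree of freedom 42.6 to 158).

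The comparison, the gene choices and the marker lists were made with earlier results of these data known. Identifiers are printed for the 2 highest and the 2 lowest log2 differences among called genes of 1 direction in all birds. Other genes are described by rank, and those below the threshold or with high and low libraries were chosen after their values were seen. The marker lists could not be used without gene names. Alternatives covered the block, scaling, filter, pseudocount, variance model and each bird left out.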

Additional observations from a re-analysis of the deposited data

Results flagged for a closer look

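Tests of a difference between groups singled out 4 of the 9 called genes. The 9 were chosen by their difference in the -T libraries, which are 1 side of both tests. Part of the differences below can therefore follow from that choice. The fifth and sixth genes lower in SH were not in the test against finches. The muscle difference of ENSTGUG00000000287 was lower in -T than in +T manakins by -6.13 and lower than in finches by -6.38 on the log2 scale (limma adjusted p = 0.0334 and 1.03e-06). The third gene lower in SH differed from finches by -5.17 (limma adjusted p = 2.27e-06). In +T manakins, outside that test, it was at 26.9, 16.6 and 0.103 RPKM in PEC and 0.224, 0.707 and 0.182 RPKM in SH. The PEC of +T bird 3 was thus near 0, as was its SH. In T-only birds it was at 63.1, 58.6 and 48.2 RPKM in SH and 35.5, 42.6 and 21.7 RPKM in PEC, so finch SH was well expressed where manakin SH was under 1 RPKM. ENSTGUG00000007447 differed from finches by 4.31 and ENSTGUG00000007407 by 1.76 (limma adjusted p = 0.00689 and 0.0381). The call of the last was lost without the block (0.0522), with a pseudocount of 0.1 (0.0961), with no filter (0.0545) and without any 1 -T bird (0.0578 to 0.113).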

How the results depend on the processing

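Of the -T muscle calls, 9 in the report, the count was 18 without the replicate block (9 higher, 9 lower, the 9 among them), 3 with 12 manakin libraries and the replicate block, 19 with an abundance trend and 39 with limma-voom. It ranged from 0 to 2 with 1 bird left out. It was 6 with a pseudocount of 0.1, 5 of them among the 9. With no filter the same 9 were called, and 13 with the stricter filter or array weights, the 9 among them. With 12 libraries and no block the count was again 9, but only 6 of these were among the 9 of the report. ENSTGUG00000007407 lost its call in both 12-library fits (adjusted p up to 0.285), ENSTGUG00000006008 in the one with the replicate block (0.132) and ENSTGUG00000007447 with limma-voom (0.115). Of the other 5 genes each kept its call in 8 or 9 of the 11 alternatives with all birds. With 1 bird left out, limma adjusted p was 0.0439 to 0.194 over the 9 genes, and ENSTGUG00000006008 without bird 2 was the one call among them. The implant test called 0 genes without the block, with either scaling, with a pseudocount of 0.1 and with no filter, and 0 to 1 with 1 bird left out. The species test called 41 with a pseudocount of 0.1 and 19 to 60 with 1 -T bird left out, 19 being without bird 1. Without the block, +T manakins had 1 call and T-only finches 351. Over listed genes T-only finches had 1518 and flutamide finches 538, which the removal of genes with no spread brings about. No named gene's difference changed sign, but the balance of the -T calls turned from 3 higher and 6 lower to 22 and 17 with limma-voom, 11 and 8 with the abundance trend and 5 and 4 with 12 libraries and no block. The species calls turned from 17 and 52 to 30 and 26 with median-ratio scaling, and the -T median over all genes from 0.10 to -0.01 with quantile scaling. Where no cause is given, the cause was not tested. Genes on few reads, such as the SH values of the genes lower in SH, are the ones that depth limits.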
